A study of Mus musculus with 36 samples.

Results

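The genes described here encode the proteins of the cytosolic ribosome. They were chosen by symbol, as Rpl or Rps followed by a number, together with Rplp0, Rplp1, Rplp2 and Rpsa, leaving out named pseudogenes and the Rps6k kinases, and kept where their mean over the 36 libraries was at least 10 TPM (a level scaled by transcript length and by library). Of 55291 gene symbols, 89 matched and 82 passed the minimum, 33 of the small subunit and 49 of the large subunit. The 82 genes lie on 19 chromosomes of GRCm38, with 14 on chromosome 7 and 4 on the X chromosome. GENCODE M21 lists 81 of them as protein coding and Rps4l as a transcribed processed pseudogene.

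Left ventricles and atria were taken at 21 weeks from CUG960 mice, which are homozygous for TREDT960I, a transgene with CTG repeats in a human DMPK context, and hemizygous for MHCrtTA, which confines the doxycycline-dependent activator to cardiomyocytes. All 6 cohorts carried both transgenes. The +dox cohort received doxycycline from postnatal day 1, the +/–dox cohort was taken off it at 9 weeks, and the –dox cohort never received it. Mice of 3 further cohorts (MBNL1, MBNL2, MBNL1+MBNL2) remained on doxycycline and received at 9 weeks AAV9 vectors that express tagged human MBNL1, MBNL2 or both from the human TNNT2 promoter, 12 weeks before the tissue was taken. With 3 animals per cohort and tissue there were 36 libraries in 12 groups. The study lists animals of both sexes in each cohort except MBNL1+MBNL2, whose animals were all male, and sex was not in the labels and was not fitted. All comparisons with +dox mice share the same 3 +dox libraries of a tissue. The study also had a cohort given a tdTomato control vector, which is not among the 36 libraries. The +dox mice received no vector, so vector delivery and MBNL cannot be told apart in the MBNL cohorts.

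Each ribosome holds 1 copy of nearly every ribosomal protein, so that cells make these proteins in matched amounts. Their mRNAs are short, abundant, and typically begin with a C followed by a run of pyrimidines, the 5′ terminal oligopyrimidine (TOP) tract, through which mTOR signalling and the binding protein LARP1 control their translation. Heart and skeletal muscle also express Rpl3l, a paralog that replaces Rpl3 in part of the ribosomes of muscle.

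The tract was looked for in the promoter sequences of RefSeq (GRCm38.p6), which held 61 of the 82 genes. It was defined as a C followed by at least 4 bases that are each C or T, on the strand of the gene, so that tracts can overlap. It began exactly at an annotated start in 13 of the 61 genes (21.3%) and in 3.0% of all 27025 genes with a promoter. Within 10 bases of a start it was found in 37 of the 61 (60.7%) and in 34.4% of all genes. The windows shown here are those of genes with and without a tract that the results turn on, from 15 bases before the annotated start through the 15 bases that begin with it. Capitals mark the longest tract that begins within 10 bases of the start. Rpl4 has none there, though its window holds a run of C and T that begins further before the start.
Rps27 (chr3:90213634-90213663, minus strand): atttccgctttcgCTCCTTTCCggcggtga
Rps18 (chr17:33955651-33955680, minus strand): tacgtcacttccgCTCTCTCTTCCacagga
Rps6 (chr4:86857353-86857382, minus strand): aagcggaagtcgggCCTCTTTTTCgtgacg
Rpl22l1 (chr3:28805493-28805522, plus strand): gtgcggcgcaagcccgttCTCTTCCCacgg
Rpl3l (chr17:24727811-24727840, plus strand): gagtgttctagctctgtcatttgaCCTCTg
Rpl4 (chr9:64173372-64173401, plus strand): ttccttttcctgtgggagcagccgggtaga

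In Rps27, Rps18 and Rps6 the tract lies across the annotated start, whereas in Rpl22l1 it begins 3 bases after it. In Rpl3l, of which RefSeq lists 2 starts, the match begins 9 bases after the first start and is of the minimum length of 5 bases. The promoters of Rpl3, Rpl29 and Rps4l were not analysed here.

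Ribosomal protein genes have many processed pseudogenes, and RSEM, with which the authors estimated expression, divides a read that fits several loci between them. The files list 318 named pseudogenes of the 82 genes and 583 pseudogenes that are at least 95% identical to one of them over at least 80% of their length, 737 copies in all. Rpl31 and Rps12 have 24 named copies each. For 13 genes, over 10% of the expected counts of gene and copies together were listed under the copies. Rps2 had 95.1% of them there, Rps18 85.6%, Rpl29 78.1% and Rpl34 65.9%. The named copies with the highest mean expected count were Rps2-ps10 (33521.2), Rps18-ps6 (8136.2) and Rpl3-ps1 (7647.1). Thus Rps2 itself stood at only 42.6 TPM, while Rps2-ps10 stood at 859 TPM.

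**Figure D1:**
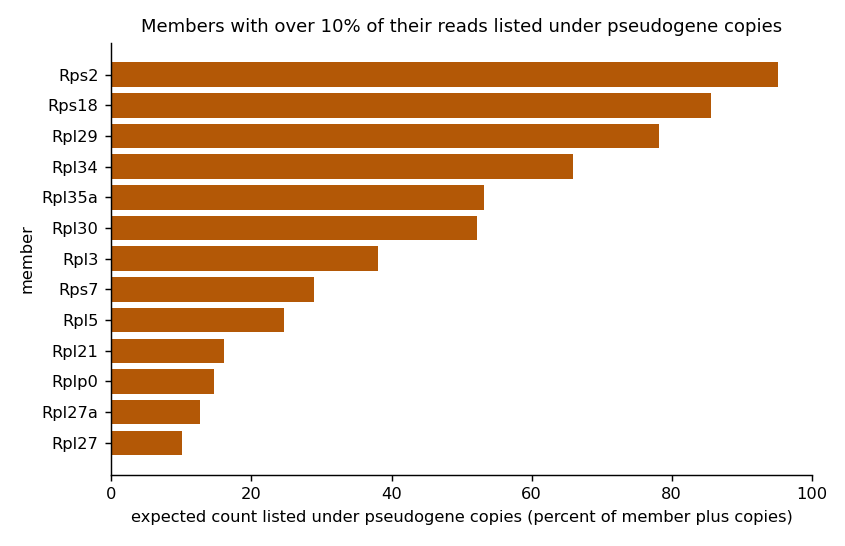
Share of expected counts listed under pseudogene copies, as a percentage of the counts of the gene and its copies, for the 13 genes where it exceeded 10% (mean over 36 libraries). The bars run from 95.1% for Rps2 to 10.1% for Rpl27.

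How close such copies are is shown by 30 bases of the transcripts of Rpl29 and Rpl30, each beside the copy with the highest count, from GENCODE M21. Capitals mark the base that differs.
Rpl29, transcript bases 166 to 195: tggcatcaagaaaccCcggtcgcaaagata
Gm13841, bases 57 to 86: tggcatcaagaaaccAcggtcgcaaagata
Rpl30, transcript bases 258 to 287: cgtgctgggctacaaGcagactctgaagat
Gm12191, bases 81 to 110: cgtgctgggctacaaAcagactctgaagat

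Over its whole length, Gm13841 differed from Rpl29 at 3 of 483 bases, and Gm12191 from Rpl30 at 1 of 348 bases. Rpl3-ps1 differed from Rpl3 at 2 of 1210 bases. The expressed paralogs and relatives are further apart, since Rpl3 and Rpl3l were identical at 77.13% of 1172 aligned bases and Rps4x and Rps4l at 81.42% of 829. Results for the 13 genes are therefore given with and without the copies added where this changed a call. Other fold changes and levels given for these genes are those of the gene alone.

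The levels of the 82 genes spanned a wide range. The highest means over all libraries were those of Rps29 (1181 TPM), Rplp1 (1178 TPM), Rps24 (1029 TPM), Rps27 (1025 TPM) and Rps15 (988 TPM). Rps29, Rps24, Rps27 and Rps15 are proteins of the small subunit and Rplp1 is an acidic protein of the large subunit stalk. The lowest were Rps4l (18.5 TPM), Rpl7l1 (23.6 TPM), Rps2 (42.6 TPM), Rps20 (47.0 TPM) and Rpl29 (50.1 TPM). By expected count, which is not scaled by length, Rps20 was not among the lowest, with a mean of 8600.5 beside 6849.4 for Rps27. Rps4l and Rpl7l1 were also the genes nearest above the minimum of 10 TPM. The 7 symbols below it were Rps3a2 (2.91 TPM), Rpl6l (1.65 TPM), Rps3a3 (0.29 TPM), Rpl39l (0.23 TPM) and Rpl32l (0.07 TPM), with Rpl10l and Rps12l1 listed at 0. Rpl10l and Rpl39l are paralogs known from testis.

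Other genes of the ribosome that the symbol rule does not take were also expressed. Fau, which encodes a small subunit protein as a fusion, was at 400.2 TPM, and the small subunit scaffold Rack1 at 310 TPM. Among the retrogenes and relatives, Rpl36al was at 207 TPM, Rps27rt at 32.6 TPM, Rpl37rt at 7.95 TPM and Rps23rg1 at 0.12 TPM.

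The labelled tissues showed their own markers. Ventricular markers summed to between 19974 and 28117 TPM in the ventricular libraries and to between 289 and 1106 TPM in the atrial ones, and atrial markers to between 40301 and 61795 TPM in the atria and between 96.8 and 1011 TPM in the ventricle. The expected counts of a library totalled between 55 and 97.1 M. Ventricular MBNL1 replicate 1 stood apart, with 16885 genes above 0 against 20578 to 24041 in the other ventricular libraries. The library names fall into a set A (replicates 1 and 2 of all cohorts but MBNL1+MBNL2) and a set B (replicate 3 of those cohorts and all MBNL1+MBNL2 libraries). In the study's sample list the last animal of each cohort but MBNL1+MBNL2 is its only female. The labels do not say whether that order is the order of the replicates. If it is, library set and sex cannot be told apart within those cohorts.

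The first comparison concerns the chambers. The 82 genes together took 2.50% to 3.37% of all TPM in the ventricle and 3.97% to 4.97% in the atria, so that the 18 atrial libraries were all above the 18 ventricular ones. On normalized counts the chambers were much closer. In –dox mice the median log2 fold change of the 82 genes in atria against ventricle was 0.12, beside 0.03 for all genes tested. At an adjusted p-value below 0.05 (edgeR, as below), 27 of the 82 genes were higher in the atria, where 22.3% of all genes were higher, and 4 were lower, where 20.3% of all genes were. Without ventricular –dox replicate 1 the 27 became 12. In bulk tissue, fewer cells of a type and less RNA per cell cannot be told apart.

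The choice of scale sets the size of this difference. On log2(TPM + 1) the median of all genes was 0.32 and that of the 82 genes 0.67, which is 0.36 above it, and limma placed 80 of the 82 genes higher and 1 lower, beside 55.2% and 6.79% of all genes. The 13 mRNAs encoded by mitochondrial DNA, all of which were lower in the atria of –dox mice on normalized counts, took 26.1% to 31.2% of TPM in the ventricle and 18.9% to 22.3% in the atria. Their part in the difference between the scales was not tested. Of the marker lists, 5 of 6 fibroblast genes and 6 of 6 macrophage genes also rose in the atria of –dox mice at an adjusted p-value below 0.05. Fibroblast markers summed to between 591 and 1146 TPM in the ventricle and between 1122 and 1672 TPM in the atria, and macrophage markers to between 76.1 and 149.9 TPM and between 174 and 339 TPM. Their part in the chamber difference was not tested.

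**Figure D2:**
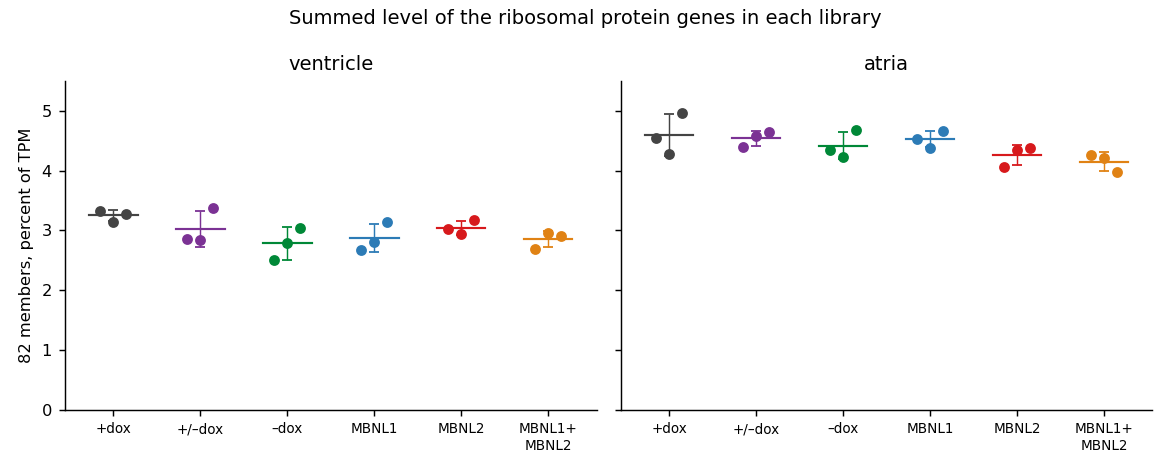
Share of all TPM taken by the 82 ribosomal protein genes in each library (points), with the mean (line) and SD (bar) of the 3 libraries of a cohort, in the ventricle (left) and the atria (right). Every atrial library lies above every ventricular one, at 3.97% to 4.97% against 2.50% to 3.37%.

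Only 3 of the 82 genes were called between the chambers of –dox mice, where 24.9% of all genes were. These were the paralogs Rpl3 and Rpl3l, and Rpl22l1. Called, or past both cutoffs, means a Benjamini-Hochberg adjusted p-value below 0.05 in the quasi-likelihood test of edgeR together with a change of 1.5-fold or more, up or down.

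Rpl3l (ENSMUSG00000002500.15, chromosome 17 of GRCm38, 24727820 to 24736143, plus strand) was the gene with the largest difference. In the ventricle of –dox mice it was at 178, 162 and 188 CPM (counts scaled by library and TMM factor), and in the atria at 9.67, 7.46 and 13.2 CPM. The groups were far apart, with a log2 fold change of -4.12 ± 0.18 (SE, edgeR adjusted p = 1.18e-16, n = 3 per group). Rpl3 (ENSMUSG00000060036.14, chromosome 15, 80077791 to 80091868, minus strand), a core protein near the peptidyl transferase centre, went the other way. It was at 85.0, 93.0 and 90.4 CPM in the ventricle and at 234, 226 and 239 CPM in the atria, a log2 fold change of 1.38 ± 0.07 (edgeR adjusted p = 1.99e-16, n = 3 per group).

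The opposite levels held in all cohorts. In TPM, which allows genes to be compared, Rpl3l ranged from 116 to 219 over the 18 ventricular libraries and from 8.04 to 20.9 over the 18 atrial ones, while Rpl3 ranged from 79.9 to 115.9 in the ventricle and from 275 to 385 in the atria. Rpl3l made up 50.8% to 68.5% of the summed TPM of both paralogs in the ventricle and 2.22% to 5.51% in the atria. These shares leave out the copies of Rpl3 and would be lower with the copies added. Of the expected counts of Rpl3 and its copies, 38.03% were listed under the copies, and with these added both calls between chambers remained.

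**Figure D3:**
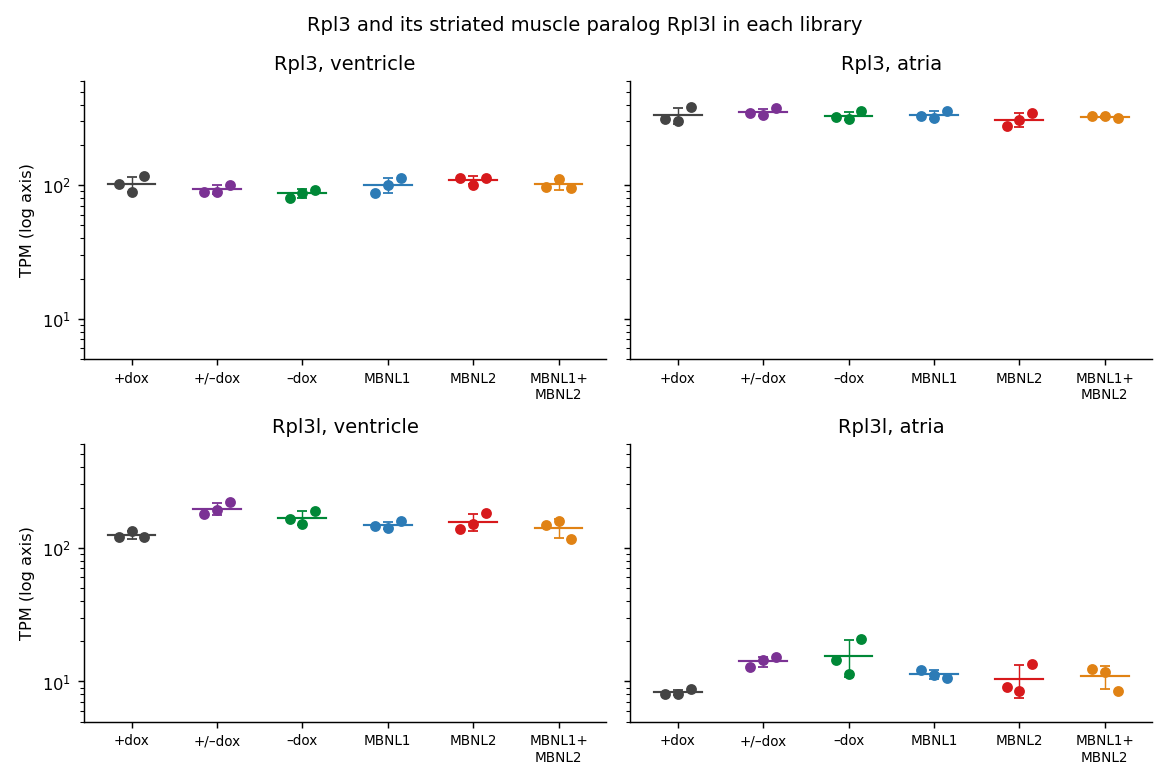
TPM (log axis) of Rpl3 (top) and Rpl3l (bottom) in each ventricular (left) and atrial (right) library, with the mean (line) and SD (bar) of the 3 libraries of a cohort. Rpl3l lies at 116 to 219 TPM in the ventricle and 8.04 to 20.9 TPM in the atria, and Rpl3 at 79.9 to 115.9 TPM and 275 to 385 TPM.

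Rpl22l1 (ENSMUSG00000039221.10, chromosome 3, 28805436 to 28807424, plus strand) is the paralog of the large subunit protein Rpl22. In –dox mice it was at 13.9, 17.99 and 17.2 CPM in the ventricle and at 25.4, 24.1 and 25.8 CPM in the atria. All atrial libraries were higher, with a log2 fold change of 0.62 ± 0.18 (edgeR adjusted p = 0.00728, n = 3 per group). Without ventricular –dox replicate 1 the adjusted p was 0.053.

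The other paralog pairs differed less between the chambers. Over the 18 libraries of a tissue, Rpl22 had a median of 194 TPM in the ventricle and 266 TPM in the atria, and Rpl7l1 medians of 22.1 and 24.5 TPM beside 370 and 572 TPM for Rpl7. Rps27l was at a median of 106 and 129 TPM and Rps27 at 748 and 1297 TPM. Rps4l, listed as a pseudogene, had medians of 13.4 and 24.8 TPM beside 428 and 753 TPM for its X-linked relative Rps4x. For Rpl36a the medians were 179 and 328 TPM, and for its relative Rpl36al 167 and 251 TPM. Rpl10 had medians of 563 and 1047 TPM and Rpl39 of 215 and 326 TPM. On normalized counts in –dox mice, Rpl7l1 (log2 fold change -0.29 ± 0.07, SE, edgeR adjusted p = 0.00054) and Rps27l (-0.25 ± 0.09, edgeR adjusted p = 0.023) were lower in the atria and 5 genes of these pairs were higher, all within the fold cutoff. The 5 were Rpl10 (0.49 ± 0.07, edgeR adjusted p = 2.9e-07), Rpl36a (0.44 ± 0.08, edgeR adjusted p = 3.52e-05), Rps4x (0.37 ± 0.06, edgeR adjusted p = 2.53e-06), Rps27 (0.29 ± 0.08, edgeR adjusted p = 0.0047) and Rpl7 (0.18 ± 0.06, edgeR adjusted p = 0.00895).

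In the ventricle, 33 of the 82 ribosomal protein mRNAs fell in –dox mice against +dox mice, most of them by less than 1.5-fold. The median log2 fold change of the 82 genes was -0.18, a fold of 0.886, beside 0.01 for all genes, with quartiles of -0.28 and -0.06, and 71 of the 82 values were below 0. At an adjusted p-value below 0.05, 33 genes (40.2%) fell, beside 11.3% of all genes that fell, and 1 (1.2%) rose, beside 9.64% of all genes that rose. The 33 genes were 10 of the small and 23 of the large subunit, with log2 fold changes from -0.16 to -1.30. Past both cutoffs there were only Rps4l and Rpl29, while 7.6% of all genes were called. The next lowest was Rpl38 (-0.45 ± 0.09, SE, edgeR adjusted p = 0.000554), a protein of the large subunit. The highest were Rpl3l, the 1 gene that rose, Rps2 (0.45 ± 0.28, edgeR adjusted p = 0.274) and Rpl22l1. Among the 69 genes with at most 10% of their reads in copies, 28 fell and the median was -0.15. Without –dox replicate 1 the 33 became 15.

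In single libraries the shift was seen as follows. Taking for each library the median over the 82 genes of log2 CPM relative to the mean of the +dox cohort, the +dox libraries were between -0.02 and 0.01 and the –dox libraries at -0.26, -0.14 and -0.11. The +/–dox libraries were at -0.13, -0.12 and 0.02. The MBNL1 libraries lay between -0.27 and -0.16, the MBNL2 libraries between -0.25 and -0.12 and the MBNL1+MBNL2 libraries between -0.27 and -0.12. Thus 1 +/–dox library was at the level of the +dox libraries, and all other ventricular libraries were below them.

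Marker levels of other cell types also differed between these cohorts. Endothelial markers summed to between 180 and 185 TPM in the ventricular +dox libraries and to between 222 and 284 TPM in the –dox libraries, and 5 of the 6 genes rose in –dox mice at an adjusted p-value below 0.05. Red blood cell markers summed to between 393 and 1243 TPM in the +dox libraries and between 1842 and 4147 TPM in the –dox libraries, with none of 5 past that threshold. T cell and B cell markers were at or below 3.4 and 1.1 TPM in sum in every ventricular library. Of 6 fat cell and 6 cardiomyocyte markers 2 each rose, of 6 fibroblast markers 1 rose, and 1 of 5 T cell markers fell. Of the +dox libraries, 2 were the deepest of the ventricle, at 95.6 and 97.1 M, and the third had 69.5 M, against 58.8 to 78.0 M in –dox mice. Their part in the shift was not tested.

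Mice taken off doxycycline showed a smaller shift. In the ventricle of +/–dox mice the median log2 fold change against +dox was -0.06 beside 0.00 for all genes, and 14 genes fell and 3 rose at an adjusted p-value below 0.05. The 14 are 17.1% of the 82 genes, beside 11.1% of all genes that fell, and the 3 are 3.7%, beside 10.6% of all genes that rose. Without +/–dox replicate 1 the 14 became 9. The only gene past both cutoffs was Rpl3l, where 6.6% of all genes were called. The lowest values were those of Rps27l (-0.51 ± 0.09, SE, edgeR adjusted p = 0.000111), Rpl29 (-0.38 ± 0.16, edgeR adjusted p = 0.0808) and Rps24 (-0.36 ± 0.09, edgeR adjusted p = 0.00291). Rps27l is the p53-inducible paralog of Rps27, and it was lower in all 3 +/–dox libraries (22.4, 21.7 and 24.6 CPM) than in the +dox libraries (34.8, 29.6 and 33.2 CPM). After Rpl3l, the highest values were those of Rps2 (0.61 ± 0.28, edgeR adjusted p = 0.127) and Rpl13 (0.31 ± 0.16, edgeR adjusted p = 0.175). With replicate number as a block, which did not pair libraries across cohorts, Rps2 passed both cutoffs (0.64, edgeR adjusted p = 0.0206). Copies held 95.1% of the expected counts of Rps2 with its copies. The coefficient of variation of Rps2 within groups had a median of 22.2%.

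When +/–dox was compared directly with –dox, no gene passed both cutoffs with edgeR in either tissue, where 0.0312% (ventricle) and 0.0104% (atria) of all genes were called. DESeq2 called 1 gene in the ventricle, Rps4l, and none in the atria. The median was 0.10 in the ventricle, with 76 of 82 values above 0, and 0.08 in the atria, with 78 above 0. With edgeR 16 genes of the ventricle and 3 of the atria had an unadjusted p below 0.05. The highest next to Rps4l and Rpl21 was Rpl29, at 0.36 ± 0.16 (SE, edgeR adjusted p = 0.548) and 0.42 ± 0.16 (0.843). The lowest were Rpl30 (-0.16 ± 0.09), Rps27l (-0.10 ± 0.09) and Rpl22l1 (-0.09 ± 0.18) in the ventricle and Rpl3l (-0.11 ± 0.17), Rpl30 (-0.06 ± 0.09) and Rpl22l1 (-0.04 ± 0.18) in the atria. The 1 gene at an adjusted p-value below 0.05 was Rpl21 in both tissues, beside 0.0572% and 0.0208% of all genes. In the ventricle Rpl21 was at 193, 199 and 215 CPM in +/–dox mice and at 140.4, 163 and 152 CPM in –dox mice, a log2 fold change of 0.41 ± 0.07 (SE, edgeR adjusted p = 0.0165). In the atria it was at 225, 253 and 216 CPM against 171, 172 and 171 CPM, a log2 fold change of 0.43 ± 0.07 (edgeR adjusted p = 0.0101). The groups did not overlap in either tissue. The study lists both tissues of the same animals, so the tissues are not independent. Rpl21 has 62 copies, which held 16.1% of the expected counts.

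In the ventricle the median lay below that of all genes in each of the 3 MBNL cohorts, compared with +dox mice that received no vector. In MBNL1 mice it was -0.20 (all genes -0.04), and 24 genes fell at an adjusted p-value below 0.05, beside 4.96% of all genes that fell. Without MBNL1 replicate 1, the library that stood apart, 13 fell. In MBNL2 mice the median was -0.20 (all genes 0.00) and 32 genes fell, beside 4.31% of all genes. Without MBNL2 replicate 1, 16 fell. In MBNL1+MBNL2 mice it was -0.20 (all genes -0.01) and 33 genes fell, beside 5.17% of all genes. Without 1 library, 8 fell (MBNL1+MBNL2 replicate 1), 14 (MBNL1+MBNL2 replicate 2) or 21 (+dox replicate 1). None of the 82 genes rose in the 3 cohorts with edgeR, where 4.0%, 3.12% and 3.17% of all genes rose. Fitting only the 6 libraries compared gave 1, 14 and 0 genes that fell, with medians of -0.18, -0.19 and -0.18. Endothelial markers summed to between 191.8 and 252.3 TPM in the 9 ventricular MBNL libraries, all above the +dox libraries, and 1, 0 and 1 of the 6 genes rose in the MBNL1, MBNL2 and MBNL1+MBNL2 cohorts. Fibroblast markers summed to between 681 and 746 TPM in the +dox libraries, 734 and 868 TPM in MBNL1 mice, 823 and 1146 TPM in MBNL2 mice and 813 and 1062 TPM in MBNL1+MBNL2 mice, with 1 of 6 genes that rose in each. Their part in these counts was not tested.

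Few of these genes were past both cutoffs. Rpl29 was called in MBNL1 mice (-0.73 ± 0.16, SE, edgeR adjusted p = 0.00405) and in MBNL1+MBNL2 mice (-0.60 ± 0.16, edgeR adjusted p = 0.0149), where 2.66% and 2.65% of all genes were called. In MBNL2 mice no gene of the 82 passed both with edgeR or DESeq2, where 1.52% of all genes did and 51 of the 82 had an unadjusted p below 0.05. The lowest there were Rps18 (-0.53 ± 0.14, edgeR adjusted p = 0.0151), Rpl29 (-0.46 ± 0.16, edgeR adjusted p = 0.0702) and Rpl30 (-0.45 ± 0.09, edgeR adjusted p = 0.00291). Copies held 85.6%, 78.1% and 52.1% of the expected counts of these genes with their copies, and 65.9% for Rpl34, named below. Next to Rpl29, the lowest in MBNL1 mice were Rps24 (-0.41 ± 0.09, edgeR adjusted p = 0.00325) and Rps18 (-0.40 ± 0.14, edgeR adjusted p = 0.0602), and in MBNL1+MBNL2 mice Rpl34 (-0.46 ± 0.12, edgeR adjusted p = 0.0167) and Rpl32 (-0.37 ± 0.08, edgeR adjusted p = 0.00317). The highest in all 3 cohorts was Rps2, at 0.31 ± 0.28 in MBNL1 mice (edgeR adjusted p = 0.528), 0.25 ± 0.28 in MBNL2 mice (0.659) and 0.41 ± 0.28 in MBNL1+MBNL2 mice (0.419). Rpl3l came next in each, then Rpsa in MBNL1 mice (0.07 ± 0.07), Rpl13 in MBNL2 mice (0.17 ± 0.16) and Rpl22l1 in MBNL1+MBNL2 mice (0.11 ± 0.19).

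**Figure D4:**
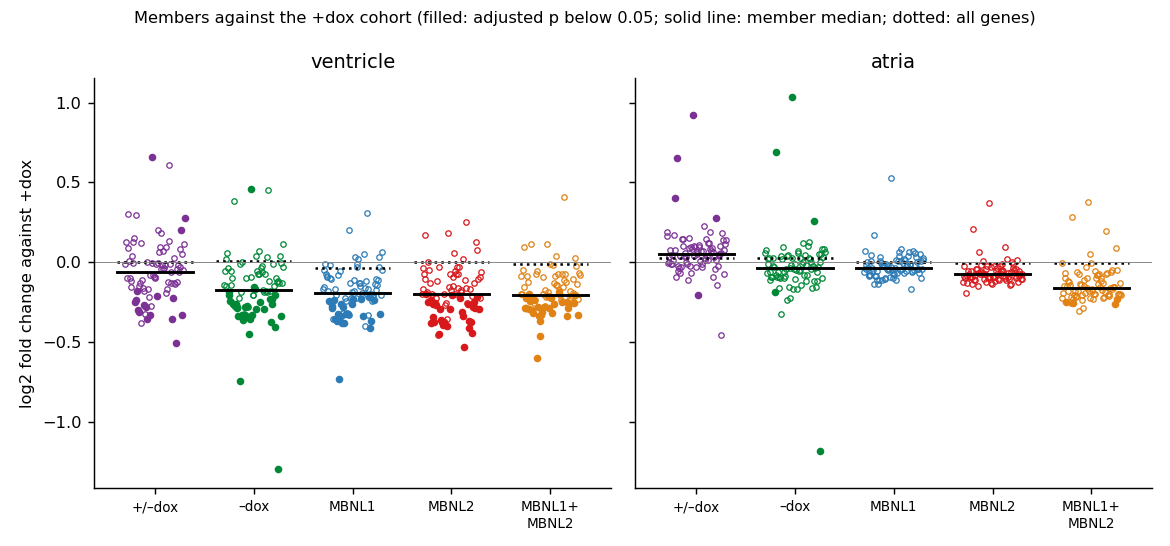
Log2 fold change against +dox of each of the 82 genes (points, in alphabetical order within a cohort) in the ventricle (left) and atria (right). Filled points passed an adjusted p-value below 0.05, solid lines are the medians of the 82 genes (from -0.20 to 0.05) and dotted lines the medians of all genes tested (from -0.04 to 0.03).

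In the atria the shift was smaller. The median log2 fold change against +dox was -0.03 in –dox, 0.05 in +/–dox, -0.04 in MBNL1 and -0.07 in MBNL2 mice, beside medians of all genes of 0.03, 0.02, 0.00 and 0.00. In –dox mice 3 genes rose and 2 fell at an adjusted p-value below 0.05, where 15.9% of all genes changed in either direction, and in +/–dox mice 4 rose and 1 fell, where 12.6% did. Within the fold cutoff these were Rps27 (0.26 ± 0.08) and Rpl22 (-0.19 ± 0.06) in –dox mice and Rpl21 (0.40 ± 0.07), Rps27 (0.28 ± 0.08) and Rpl7l1 (-0.20 ± 0.07) in +/–dox mice. The lowest value in +/–dox mice was that of Rps4l (-0.46 ± 0.29, SE, edgeR adjusted p = 0.349), and Rps27l was at -0.14 ± 0.09. In MBNL1 and MBNL2 mice none of the 82 passed (0.348% and 0.0104% of all genes), nor both cutoffs (0.13% and 0.0052%), with edgeR, or with DESeq2 for both cutoffs, and 2 and 4 genes had an unadjusted p below 0.05. The highest in both cohorts was Rpl3l, at 0.53 ± 0.17 in MBNL1 mice (edgeR adjusted p = 0.256) and 0.37 ± 0.17 in MBNL2 mice (edgeR adjusted p = 1). Rpl22l1 came next (0.17 ± 0.18 and 0.21 ± 0.18), then Rps12 (0.08 ± 0.08) in MBNL1 and Rps18 (0.09 ± 0.13) in MBNL2 mice. The lowest were Rps24 (-0.17 ± 0.09, edgeR adjusted p = 0.652), Rpl27 (-0.14 ± 0.08) and Rpl22 (-0.14 ± 0.06) in MBNL1 mice, and Rpl13 (-0.19 ± 0.16, edgeR adjusted p = 1), Rpl27a (-0.15 ± 0.09) and Rps24 (-0.14 ± 0.09) in MBNL2 mice.

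In the atria of MBNL1+MBNL2 mice the median was -0.16 beside -0.01 for all genes, and 77 of 82 values were below 0. Of the 82 genes, 4 fell at an adjusted p-value below 0.05, beside 0.333% of all genes, and none passed both cutoffs with edgeR or DESeq2, beside 0.26%. At an unadjusted p below 0.05 there were 43 genes. All MBNL1+MBNL2 libraries are of set B and 2 of the 3 +dox libraries of set A. With the library set in the fit, which may also stand for sex, 13 genes fell. Leaving out any of the +dox replicates, or MBNL1+MBNL2 replicate 2 or 3, left none. The 3 lowest values were those of Rpl30 (-0.31 ± 0.09, SE, edgeR adjusted p = 0.126), Rpl35a (-0.29 ± 0.09, edgeR adjusted p = 0.201) and Rps3a1 (-0.26 ± 0.07, edgeR adjusted p = 0.0481). Rpl23 (-0.26), Rpl14 (-0.25) and Rps4x (-0.23) were the others that fell. Copies held 52.1% of the expected counts of Rpl30 with its copies, and 53.2% for Rpl35a. The highest were Rpl3l (0.38 ± 0.17, edgeR adjusted p = 0.441), Rpl22l1 (0.28 ± 0.18) and Rps2 (0.20 ± 0.28).

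A test of whether the –dox difference differed between the tissues (the interaction) gave no gene at an adjusted p-value below 0.05 with edgeR, where 1.03% of all genes passed, or past both cutoffs with edgeR or DESeq2, where 0.764% did. At an unadjusted p below 0.05 there were 15 genes. The median of the 82 interaction terms was 0.13 beside 0.01 for all genes, with 76 above 0, that is, most values against +dox were higher in the atria than in the ventricle. The highest were Rpl3l (0.58 ± 0.23, SE, edgeR adjusted p = 0.299), Rpl29 (0.42 ± 0.22, edgeR adjusted p = 0.506) and Rpl39 (0.34 ± 0.18, edgeR adjusted p = 0.505). The lowest were Rps2 (-0.32 ± 0.39, edgeR adjusted p = 0.858), Rplp2 (-0.12 ± 0.12) and Rpl13 (-0.07 ± 0.22).

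The genes called against +dox were a few with particular patterns, and most of them are paralogs or relatives of a core gene. Past both cutoffs, 3 genes were called in the atria of –dox mice (5.23% of all genes) and 2 in those of +/–dox mice (3.99%).

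Rpl3l rose in the cohorts that were off doxycycline. In the ventricle it was at 124, 144 and 116 CPM in +dox mice and at 188, 204 and 215 CPM in +/–dox mice, whose libraries were all higher, a log2 fold change of 0.66 ± 0.16 (SE, edgeR adjusted p = 0.00336). In –dox mice, at 178, 162 and 188 CPM, the log2 fold change was 0.46 ± 0.16 (edgeR adjusted p = 0.0382), within the fold cutoff. In the atria it was at 4.95, 4.84 and 4.99 CPM in +dox mice. The –dox libraries (9.67, 7.46 and 13.2 CPM) and the +/–dox libraries (8.52, 9.96 and 9.56 CPM) were all higher, with log2 fold changes of 1.04 ± 0.17 (edgeR adjusted p = 8.1e-05) and 0.93 ± 0.17 (edgeR adjusted p = 0.000412). As a share of Rpl3 plus Rpl3l in TPM, ventricular Rpl3l was at 55.2% ± 4.81 (SD, n = 3) in +dox, 67.8% ± 1.11 in +/–dox and 65.9% ± 2.32 in –dox mice. The copies of Rpl3 are left out here too, and all of these shares would be lower with them. In the MBNL1, MBNL2 and MBNL1+MBNL2 cohorts it was at 59.7% ± 2.38, 58.7% ± 3.55 and 58.0% ± 2.74. The ventricular log2 fold changes of Rpl3l in these cohorts were 0.20 ± 0.16 (edgeR adjusted p = 0.445), 0.19 ± 0.16 (0.545) and 0.11 ± 0.16 (0.731).

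Rps4l (ENSMUSG00000063171.4, chromosome 6, 148354656 to 148355598, plus strand) stood apart in –dox mice. In the ventricle it was at 9.71, 10.02 and 8.11 CPM in +dox mice and at 2.06, 5.01 and 4.26 CPM in –dox mice, with no overlap and a log2 fold change of -1.30 ± 0.30 (SE, edgeR adjusted p = 0.00274). In the atria it was at 11.8, 13.1 and 11.2 CPM in +dox mice and at 3.80, 6.58 and 5.59 CPM in –dox mice, again with no overlap, a log2 fold change of -1.18 ± 0.30 (edgeR adjusted p = 0.0062). By the study's list both tissues are of the same animals, so they are not independent. The +/–dox mice did not share this low level. They were at 11.8, 7.43 and 10.2 CPM in the ventricle and 8.21, 10.9 and 7.27 CPM in the atria, all above the –dox libraries. Their log2 fold change against –dox mice was 1.38 ± 0.30 in the ventricle (edgeR adjusted p = 0.0963, DESeq2 adjusted p = 0.000962) and 0.73 ± 0.30 in the atria (edgeR adjusted p = 0.916). The MBNL cohorts were between 5.93 and 13.6 CPM in the ventricle and between 9.36 and 15.4 CPM in the atria. Rps4x, the protein-coding relative of Rps4l, passed the fold cutoff in no comparison.

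Rpl22l1 rose in the atria of both cohorts off doxycycline. It was at 14.3, 13.3 and 19.2 CPM in +dox mice, at 25.4, 24.1 and 25.8 CPM in –dox mice and at 22.0, 27.4 and 24.0 CPM in +/–dox mice, and neither cohort overlapped with +dox. The log2 fold changes were 0.69 ± 0.18 (SE, edgeR adjusted p = 0.00979) and 0.65 ± 0.18 (edgeR adjusted p = 0.0175). Leaving out +dox replicate 1 or 2 ended both calls (adjusted p from 0.0605 to 0.109), and leaving out +/–dox replicate 2 ended the second (0.0929). In the ventricle, +dox replicate 3 (17.2 CPM) was above replicates 1 and 2 (10.6 and 9.93 CPM) and overlapped with the –dox libraries (13.9, 17.99 and 17.2 CPM), with a log2 fold change of 0.38 ± 0.19 (edgeR adjusted p = 0.152). In the MBNL cohorts it was between 7.16 and 16.8 CPM in the ventricle and between 14.5 and 21.8 CPM in the atria.

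Rpl29 (ENSMUSG00000048758.14, chromosome 9, 106429454 to 106431568, plus strand) encodes a small basic protein of the large subunit. In the ventricle it was at 28.7, 25.4 and 23.1 CPM in +dox mice and at 12.8, 14.6 and 18.9 CPM in –dox mice, with no overlap and a log2 fold change of -0.74 ± 0.16 (SE, edgeR adjusted p = 0.000977). In MBNL1 mice it was at 12.2, 17.9 and 16.4 CPM, in MBNL2 mice at 18.9, 19.0 and 18.4 CPM and in MBNL1+MBNL2 mice at 14.9, 13.4 and 22.7 CPM, all below the +dox libraries. With the counts of its copies added, as Gm13841 above, no call of Rpl29 remained past both cutoffs, and the log2 fold changes were -0.25 in –dox (edgeR adjusted p = 0.0286), -0.27 in MBNL1 (0.0378) and -0.16 in MBNL1+MBNL2 mice (0.242).

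**Figure D5:**
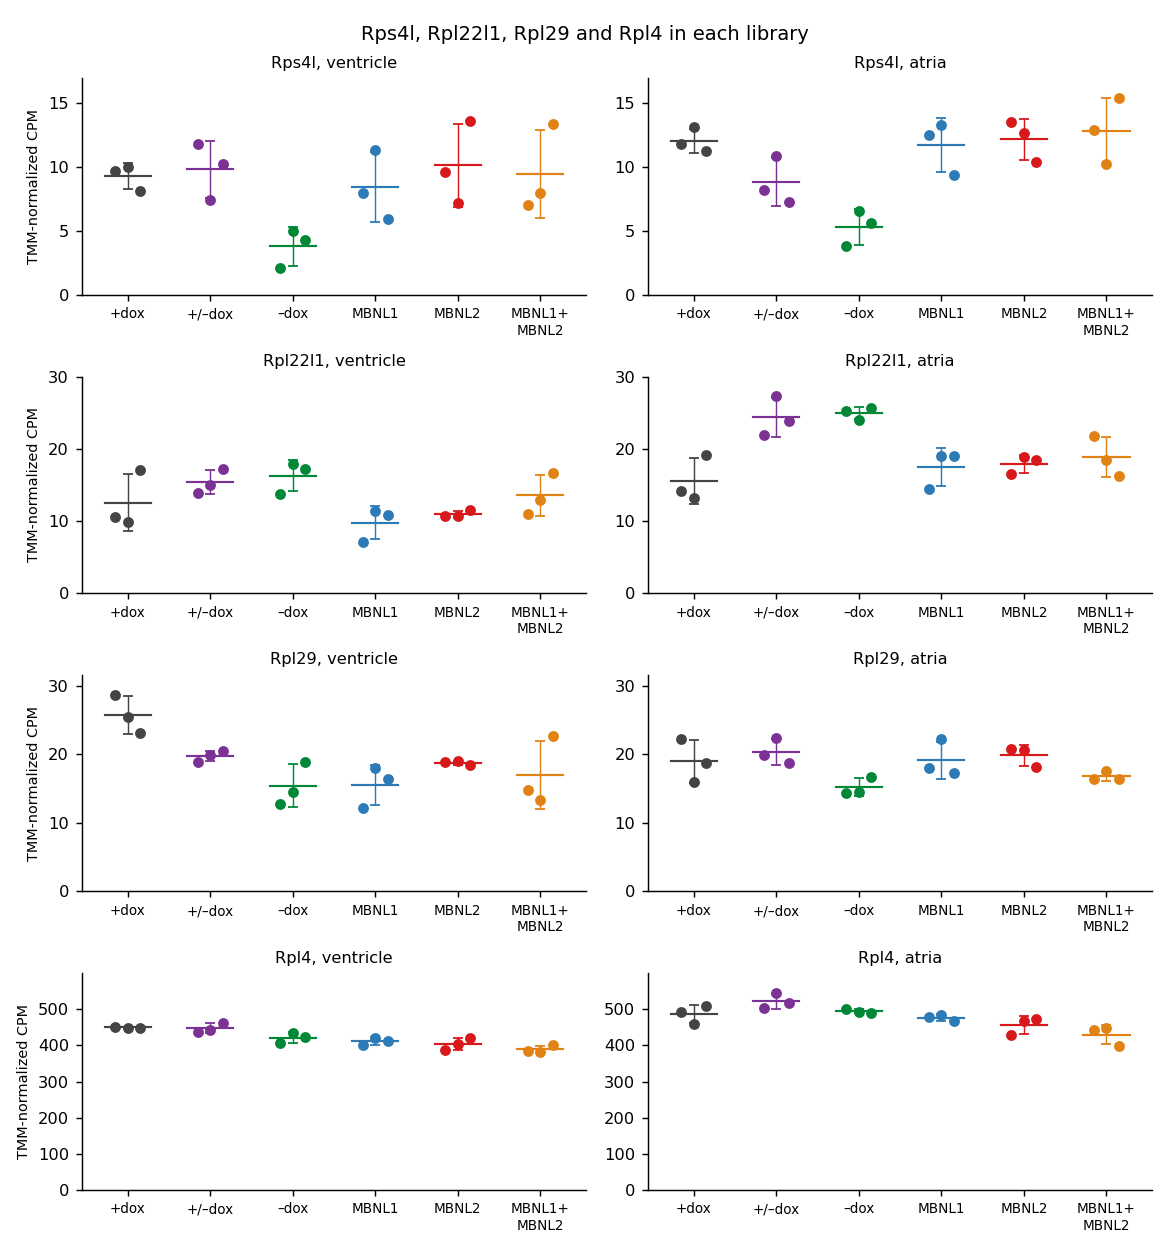
TMM-normalized CPM of Rps4l, Rpl22l1, Rpl29 and Rpl4 in each ventricular (left) and atrial (right) library, with the mean (line) and SD (bar) of 3 libraries. Rps4l is lowest in the –dox cohort in both tissues (2.06 to 5.01 and 3.80 to 6.58 CPM), and Rpl4 lies between 382 and 545 CPM throughout.

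The remaining genes are best described by their place in the ribosome. The stalk, which recruits the elongation factors, is made of Rplp0, Rplp1 and Rplp2, and none of the 3 changed at an adjusted p-value below 0.05 in any comparison of cohorts. Rpl5 and Rpl11 form the 5S particle, which also binds MDM2. Rpl5 fell in the ventricle of each MBNL cohort at that threshold (log2 fold changes from -0.26 to -0.29), where 24, 32 and 33 of the 82 genes fell. Over all libraries, Rpl5 had a mean of 153 TPM and Rpl11 of 330 TPM, with mean expected counts of 14723.9 and 10694.0. Copies held 24.6% of the expected counts of Rpl5 with its copies, and 1.4% for Rpl11.

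Rpl4, which the study used as the reference gene of its RT-qPCR, was at 450.1, 449.8 and 449.7 CPM in the ventricle of +dox mice and at 438, 442 and 463 CPM in +/–dox mice. It was at 406, 436 and 422 CPM in –dox mice and between 382 and 422 CPM in the 9 libraries of the MBNL cohorts, all below the +dox libraries. It fell at an adjusted p-value below 0.05 in MBNL1+MBNL2 mice (-0.21, edgeR adjusted p = 0.014) and passed the fold cutoff in no comparison. In TPM its median was 364 in the ventricle and 583 in the atria.

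Rps6, the phosphorylated target of S6 kinase, was at 417 TPM in the ventricle and 674 TPM in the atria (medians of 18 libraries), Rpsa, also known as the laminin receptor, at 238 and 375 TPM, and Rps27a, which carries ubiquitin as a fusion, at 357 and 496 TPM. Rpsa rose in the ventricle of +/–dox mice (0.28, edgeR adjusted p = 0.00322). None of the 3 passed the fold cutoff in any comparison. Of genes with a start-site tract within 10 bases and genes without, the ventricular –dox medians were -0.18 (37 genes) and -0.17 (24 genes). The rule goes by annotated starts, so a run that begins further away, as in Rpl4, counts as no tract. These groups are therefore not TOP mRNAs set against other mRNAs.

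Genes that build or serve the ribosome were taken from lists. Among the 39 tested ribosome assembly genes, 13 fell and 1 rose in the ventricle of –dox mice at an adjusted p-value below 0.05, beside 11.3% and 9.64% of all genes, with a median log2 fold change of -0.15. Past both cutoffs were Nhp2 (-0.67 ± 0.09, SE, edgeR adjusted p = 2.32e-06), a protein of H/ACA snoRNPs, and Fbl (-0.63 ± 0.07, edgeR adjusted p = 2.5e-07), the rRNA methyltransferase fibrillarin. In +/–dox mice 13 fell, beside 11.1% of all genes, with Rpf2, a factor of 5S particle assembly, past both cutoffs (-0.62 ± 0.11, edgeR adjusted p = 0.000192). In the MBNL1, MBNL2 and MBNL1+MBNL2 cohorts 1, 3 and 7 fell, beside 4.96%, 4.31% and 5.17% of all genes. In the atria 9 fell in –dox mice and 8 in +/–dox mice, beside 8.62% and 7.21% of all genes, and none fell in the MBNL cohorts with edgeR.

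Of 15 RNA polymerase I genes, which transcribe rRNA, 5 fell and 3 rose in the ventricle of –dox mice, beside the same 11.3% and 9.64%. Only Taf1a, a subunit of the promoter selectivity factor SL1, passed both cutoffs, rising from 2.63 to 8.73 CPM (log2 fold change 1.73 ± 0.14, SE, edgeR adjusted p = 2.04e-10). It was also called higher in the ventricle of +/–dox (1.63 ± 0.14, edgeR adjusted p = 7.25e-10), MBNL1 (1.26 ± 0.14, edgeR adjusted p = 1.11e-06), MBNL2 (0.74 ± 0.14, edgeR adjusted p = 0.00198) and MBNL1+MBNL2 mice (1.39 ± 0.14, edgeR adjusted p = 1.06e-07). Of 20 TOR and TOP regulators, 3 rose and 1 fell in the ventricle of –dox mice, beside the same 9.64% and 11.3%. All of these were within the fold cutoff. The S6 kinase Rps6kb1 fell (-0.40 ± 0.10, edgeR adjusted p = 0.00338), and the translation repressor Eif4ebp2 (0.38 ± 0.06, edgeR adjusted p = 3.91e-05), Rptor (0.26 ± 0.07, edgeR adjusted p = 0.00507) and Deptor (0.40 ± 0.12, edgeR adjusted p = 0.0127) of the TOR complex rose. Of 16 other genes with TOP mRNAs 1 fell, of 10 elongation factors 1 rose and 1 fell, and of 22 initiation factors 3 rose and 1 fell.

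Of 8 other ribosomal protein genes, 2 fell in the ventricle of –dox mice, beside 11.3% of all genes that fell. They were Rpl37rt (-0.77 ± 0.23, SE, edgeR adjusted p = 0.0183), past both cutoffs, and Rpl36al (-0.30 ± 0.08, edgeR adjusted p = 0.00735), within the fold cutoff. In +/–dox mice Rack1 rose (0.24 ± 0.07, edgeR adjusted p = 0.0117), Rpl36al fell (-0.23 ± 0.08, edgeR adjusted p = 0.036), and Rps23rg1, at 0.09 against 0.46 CPM, was called lower (-2.38 ± 0.74, edgeR adjusted p = 0.0202). In MBNL1 mice Rpl6l, at 1.03 against 0.52 CPM, was called higher (1.00 ± 0.31, edgeR adjusted p = 0.0389).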

How the data were processed

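Left ventricle and atria of 21-week-old CUG960 mice were profiled from 250 ng of RNA per sample as stranded poly(A) libraries. Per the submitters' processing notes and methods, reads were aligned to mm10 with STAR 2.7.10b and GENCODE M25 genes were estimated with RSEM 1.3.1. How RSEM treated strand is not given in the sources used here. The authors deposited, for each library, an expected count per gene without normalization and a TPM per gene, which is scaled by transcript length.

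Rounded expected counts of all 36 libraries were fitted with edgeR 4.0.16 (R 4.3.3, limma 3.58.1, robust quasi-likelihood, TMM, default filterByExpr, 12 groups), which kept 19231 genes, all 82 ribosomal protein genes among them. Benjamini-Hochberg adjustment covered the genes of 1 comparison. CPM are TMM-normalized. The 14 comparisons were each of 5 cohorts with +dox and +/–dox with –dox in both tissues, atria with ventricle in –dox mice, and the interaction. DESeq2 1.42.0, limma on log2(TPM + 1) and the other alternatives are given in the closing section. Standard errors were derived from the F statistic. The fit was tested on simulated data.

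Positions and overlaps came from GENCODE M21 (GRCm38), which held 96.4% of the symbols. Of the 82 genes, 34 overlap another gene on the same strand. Copies were found with BLAST, and transcripts were aligned with Biopython 1.88. Start-site sequences came from RefSeq.

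Genes named are those called in a comparison (the 3 highest and 3 lowest values where fewer than 3 were called), the 5 highest and lowest by mean TPM, those next to the minimum, paralog pairs, the stalk, the 5S particle, Rpl4, Rps6, Rpsa, Rps27a, 8 other ribosomal protein genes, the 3 named pseudogenes of highest count and up to 4 genes a list. Rpl21, the copies beside alignments, and other genes within the fold cutoff that stand beside a count of 5 or fewer were chosen after their values were seen. 1 of the 8 is not reported here by name. The genes and lists were chosen with earlier results of these data known.

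Replicate numbers of the labels did not pair libraries across cohorts, though in all cohorts but MBNL1+MBNL2 they follow the library set. Between tissues, deviations of same-numbered libraries from their group means correlated at 0.123 to 0.243 in –dox and 0.152 to 0.257 in +dox mice, and the study's sample list gives both tissues of the same animals, so the numbers were taken to pair the tissues.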

Additional observations from a re-analysis of the deposited data

How the results depend on the processing

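Under the alternatives run, no called gene changed direction, and of the medians only those of atrial MBNL1 mice (-0.036, to 0.019 with set A libraries) and atrial –dox mice (-0.033, to 0.005 without +dox replicate 3), both near 0, changed sign. The number of ribosomal protein genes past both cutoffs moved in the comparisons named next. With an adjusted p-value below 0.05 alone it was 34 (–dox), 17 (+/–dox), 24 (MBNL1), 32 (MBNL2) and 33 (MBNL1+MBNL2) in the ventricle against +dox, 5, 5 and 4 in the atria of –dox, +/–dox and MBNL1+MBNL2 mice, 1 and 1 between +/–dox and –dox, and 31 between chambers. With set A libraries only, it was 4 for –dox and 1 for MBNL2 in the ventricle and 1 for MBNL1 in the atria. With all near-identical pseudogenes added, an alternative chosen after seeing the data, it was 1, 0 and 0 for –dox, MBNL1 and MBNL1+MBNL2 in the ventricle. With only the groups compared it was 0 for MBNL1 and MBNL1+MBNL2, and RLE size factors and DESeq2 also gave 0 for the latter. Library set as a covariate gave 2 for ventricular +/–dox. In atrial +/–dox mice no filter and limma on log2(TPM + 1) gave 1 each. For ventricular +/–dox against –dox, DESeq2 gave 1 and limma 2, and for the chambers limma gave 58.

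The number of genes that fell at an adjusted p-value below 0.05 was 16, 1, 14 and 0 with only the groups compared in ventricular –dox, MBNL1, MBNL2 and MBNL1+MBNL2 mice, and with limma 11 and 18 in the last 2. In the atria of MBNL1+MBNL2 mice it was 0 with RLE, without a filter, with limma and with only the groups compared, 10 with DESeq2 and 13 with the library set. Limma placed 80 genes higher in the atria. Medians moved to -0.072 (ventricular MBNL2, limma), -0.24 (ventricular MBNL1+MBNL2, library set), 0.67 (chambers, limma) and 0.19 (interaction, set A). The cause of these changes was not tested.

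With the replicate number as a block, which pairs only the tissues, 31 genes were higher in the atria and the interaction gave 0. In all cohorts but MBNL1+MBNL2 the number also follows the library set. Across cohorts the block gave 2 genes past both cutoffs in ventricular +/–dox mice, and 39, 16, 33, 39 and 40 that fell in the ventricle of –dox, +/–dox, MBNL1, MBNL2 and, last, MBNL1+MBNL2 mice. It changed no other call.

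Leaving out 1 library at a time, the genes past both cutoffs ranged from 2 to 4 (ventricular –dox), 1 to 2 (ventricular +/–dox), 0 to 1 (MBNL2), 0 to 2 (MBNL1+MBNL2) and 1 to 2 (atrial +/–dox). Those that fell ranged from 15 to 35 (–dox, fewest without –dox replicate 1), 9 to 16 (+/–dox), 13 to 24 (MBNL1), 16 to 32 (MBNL2, fewest without MBNL2 replicate 1, and 19 without +dox replicate 3), 8 to 41 (MBNL1+MBNL2, 8 without replicate 1, 14 without replicate 2 and 21 without +dox replicate 1) and 0 to 5 (atrial MBNL1+MBNL2). Those higher in the atria ranged from 12 (without ventricular –dox replicate 1) to 31. Medians ranged from -0.087 to 0.005 (atrial –dox), -0.091 to -0.001 (atrial MBNL1), -0.25 to -0.18 (ventricular MBNL1+MBNL2), -0.23 to -0.18 (ventricular MBNL2), 0.056 to 0.165 (chambers) and 0.086 to 0.183 (interaction). Rpl29 in MBNL1+MBNL2 mice was past both cutoffs under 9 of 16 alternatives.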

Other observations

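The 82 ribosomal protein genes tended to move together between replicate libraries. As deviations from the mean of each group on log2 CPM, the level of a gene correlated with the median of the other 81 at r from 0.23 to 0.90 over the 36 libraries, with a median of 0.69, and 66 genes were over 0.5. All points share the library and its scaling, so these values are a description, and none is given here for other genes. The highest were Rpl11 (0.90), Rpl26 (0.90) and Rpl17 (0.90). The lowest were Rpl34 (0.23), Rpl7l1 (0.23), Rpl3l (0.24), Rpsa (0.27), Rpl6 (0.30) and Rps2 (0.30). The spread within a group, as the coefficient of variation of CPM, had a median over groups of 2.71% for Rpl22 and 3.30% for Rpl4, and of 22.2% for Rps2, 22.1% for Rps4l and 14.1% for Rpl22l1. These genes were chosen after their values were seen.

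The elongation factor that delivers aminoacyl-tRNA also had opposite paralogs in the chambers. In –dox mice, Eef1a1 was at a mean of 2631 CPM in the atria and 810 CPM in the ventricle (log2 fold change 1.70 ± 0.06, SE, edgeR adjusted p = 1.16e-19), and its muscle paralog Eef1a2 at 838 and 1365 CPM (-0.70 ± 0.08, edgeR adjusted p = 6.99e-09). Eif4e, the cap-binding protein, was lower in the atria, at 69.0 against 159 CPM (-1.20 ± 0.09, edgeR adjusted p = 4.64e-13). Of the 39 ribosome assembly genes, 21 were lower and 3 higher in the atria at an adjusted p-value below 0.05, beside 20.3% and 22.3% of all genes, with Rrp12 lowest (-1.31 ± 0.19, edgeR adjusted p = 1.77e-06).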
